A study of Rattus norvegicus with 18 samples.

Results

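Retinas of adult Sprague Dawley rats (P80 to P120, reared in 5 lux cyclic light) were measured with 18 microarrays (Affymetrix, rat Gene ST type) in 6 groups of 3. Control animals had no pretreatment and no damaging light. Saffron animals were fed 1 mg/kg of saffron a day for 3 weeks, and PBM (photobiomodulation) animals were held under red light for 3 min a day on 5 days. LD animals were kept for 24 h in damaging white light, and in the SafLD and PBMLD groups the same light followed the saffron or the PBM. The light was labelled 1000 lux throughout, except that 1 label field of the LD group gave 100 lux. All animals ate the vegetable matrix that carried the saffron. Each value is a log2 level of a probe set, a group of short probes summarised into 1 number per array.

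Described here are 136 probe sets, of 29214 on the array, that carried no gene symbol and were high in SafLD retinas. A probe set was a member when it had no symbol in the platform's gene table, its mean over the 3 SafLD arrays was at least 1 log2 unit (2-fold) above the mean of the 3 Control arrays, and its lowest SafLD array was above its highest Control array. They were 1.0% of the 13581 probe sets without a symbol, and 2 of the 136 (10803671 and 10923938) held the same value in every array, so 135 were separate measurements. The SafLD and Control values chose the members, so their difference is given as a description only, as is every other difference that uses those 6 arrays. The tests use the 12 LD, PBMLD, PBM and Saffron arrays, which the choice did not touch.

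As background, these arrays hold probes along the exons of known genes, along transcripts that were predicted or seen only as cloned RNAs, and control probe sets, among them sets for exons and introns of genes that most cells use. A probe set without a symbol can therefore report an unannotated end of a known gene, a noncoding RNA or a control. The gene table used here does not say which of these a member is. Bright light kills rods, and the retina around them answers with known programmes. Müller cells, the radial glia of the retina, become reactive through gp130 and STAT3 signalling, interferon-stimulated genes rise, and stressed cells turn on the transcription factors ATF4 and ATF3.

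The members fell into 2 kinds by their number on the array. Of the 136, 100 (73.5%) lay in a block of 1618 probe sets with low numbers, from 10700001 to 10701619, none of which had a symbol. That block, called the low-number run below, held only 11.9% of all probe sets without a symbol. Members made up 6.18% of the run, 0.301% of the unnamed probe sets outside it (36 of 11963) and 0.849% of the probe sets with 1 gene symbol (130 of 15310) that met the same limits. Over all probe sets 0.914% met them. Without Control 2, in which the run was high, the limits were met by 230 unnamed probe sets, 178 of them in the run. These shares are descriptions. Within the run the members were spread over all numbers, from 2.53% of the first 198 probe sets to 11.5% of those numbered 10701200 to 10701399. The 36 members outside it lay scattered among the numbered genes, and the study's annotation gave a symbol for 8 of them. Another 24 stood in the study's lists without a symbol, where the study counts such entries as noncoding RNAs, and 4 in no list. Of the 100 run members 0 stood in those lists. The study made its lists from a core set of the array, which it describes as RefSeq genes and full-length mRNAs. It does not state whether that set held the run. The absence of the run members therefore does not show that the study examined them.

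The gene table used here did not list those 8 by number, and 5 of them are described. S1pr3 (probe set 10797566) encodes a receptor for the lipid sphingosine 1-phosphate. The symbols RGD1563982 (10705553), RGD1562639 (10910805) and RGD1310572 (10810322) are listed by RefSeq as older names of Fbxo27, Dennd4a and Mgat4d. Fbxo27 encodes an F-box protein that recognises glycoproteins for ubiquitin ligases, and Dennd4a a DENN-domain protein that acts on Rab proteins of membrane traffic. The study describes RGD1310572 as similar to calmegin, and Clgn is its nearest named probe set with a lower number. The name Mgat4d used below rests on RefSeq. LOC687745 (10832646), which the study describes as similar to a protocadherin, had no RefSeq match.

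Promoters are shown for Fbxo27 and Mgat4d, members with a symbol that passed a test below, from the RefSeq promoter table (GRCr8 build). Each line gives 250 bases before the start of transcription, 5′ to 3′ along the gene's strand, chr1:93108191-93108440 on the plus strand for Fbxo27 and chr19:41681584-41681833 on the minus strand for Mgat4d. Capitals mark matches, on either strand, to 4 motifs: TTCNNNGAA (STAT factors), GAAANNGAA (interferon response), TGANTCA (AP-1) and TGACGTCA (ATF and CREB factors).
Fbxo27: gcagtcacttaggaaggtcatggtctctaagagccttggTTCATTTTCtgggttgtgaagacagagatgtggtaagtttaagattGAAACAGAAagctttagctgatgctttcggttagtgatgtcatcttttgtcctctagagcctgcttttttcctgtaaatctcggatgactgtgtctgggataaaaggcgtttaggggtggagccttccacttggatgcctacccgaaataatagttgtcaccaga
Mgat4d: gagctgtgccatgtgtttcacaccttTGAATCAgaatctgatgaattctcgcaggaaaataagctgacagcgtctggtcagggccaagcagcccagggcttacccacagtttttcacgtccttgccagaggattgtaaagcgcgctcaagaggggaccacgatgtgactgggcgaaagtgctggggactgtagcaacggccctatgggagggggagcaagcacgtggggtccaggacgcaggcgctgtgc
Fbxo27 held 2 interferon response matches, TTCATTTTC from position 40 (the motif on the opposite strand) and GAAACAGAA from position 86, and Mgat4d 1 AP-1 match, TGAATCA from position 27, counted from the left end of each line. Of 33469 promoters of the same length, 8.12% held the interferon response motif, 6.34% the AP-1 motif, 7.67% the STAT motif and 1.59% the ATF and CREB motif. A match describes the letters and does not show that a factor binds there. The Dennd4a and S1pr3 promoters held none of the 4 motifs in the same window.

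Every array was checked for its tissue. The 16 probe sets of the rod markers averaged between 11.9 and 12.7 in each array, and in all 16 lens probe sets averaged between 9.04 and 11.1, with the highest value in an LD array and the SafLD range (9.07 to 9.87) overlapping that of Control (9.10 to 9.60). Rod markers were lower in SafLD than in Control, with no overlap for 11 of 16 and a median difference of −0.33, against 0.02 over all probe sets. Ganglion cell markers had a median of −0.46, with 6 of 9 below all Control arrays, and bipolar cell markers a median of −0.10, with 3 of 8 below, while the Müller cell list had a median of 0.01. In bulk tissue fewer cells of a type cannot be told apart from less RNA per cell. The pigment epithelium, blood and microglia lists had medians of −0.08, −0.24 and −0.04. Of 14 microglial probe sets 2 lay above and 5 below the Control arrays. The share of all probe sets that lay below all Control arrays was not computed, so the counts of markers below have no background. Against 13.9% of all probe sets, all SafLD arrays lay above all Control arrays in 15 of 18 probe sets of the gp130 and STAT3 list (median 1.16, led by Gfap of reactive glia at 3.11), in 16 of 20 of the interferon list (median 0.80, led by Cxcl10 at 2.95) and in 15 of 23 of the ATF4 list (median 0.43, led by Atf3 at 3.51).

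The members with the largest SafLD difference came mostly from the run. Probe set 10701345 led with a mean of 6.81 ± 0.23 (SD, n = 3) in SafLD and 4.56 ± 1.08 in Control, a difference of 2.25. Its levels were 3.34, 5.01 and 5.34 in Control, 7.02, 5.02 and 5.74 in PBM, 5.00, 5.45 and 6.22 in Saffron, 6.27, 6.10 and 6.09 in LD, 6.35, 5.26 and 5.44 in PBMLD and 6.76, 6.62 and 7.06 in SafLD. All SafLD arrays were high, but the highest PBM array lay among them, and the Control arrays were spread over 2 log2 units. In the 12 arrays outside the choice its difference with light was 0.18 ± 0.31 (SE), with an adjusted p of 0.911 in limma.

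The next, 10701289 and 10701578, were 2.12 and 2.06 higher in SafLD than in Control. For 10701289 the Control arrays read 3.50, 3.28 and 3.16 and the SafLD arrays 5.88, 5.27 and 5.15, while LD arrays reached 5.41. For 10701578 the Control arrays read 1.90, 3.29 and 2.96, the LD arrays 2.80, 2.93 and 3.26 and the SafLD arrays 4.88, 4.53 and 4.92. Here the SafLD arrays lay above all 15 others, the next highest being a PBM array at 3.96. The further members among the 15 largest were 10700194, 10700415, 10700463, 10700537, 10701161, 10701019, 10700474, 10700228 and 10701304 in the run, from 1.99 down to 1.70, and 10766724, 10888777 and 10752799 outside it, at 1.99, 1.83 and 1.67. In 10888777 the 3 Control arrays spread from 3.37 to 5.92 and the PBMLD arrays from 3.69 to 6.57, against 7.03, 6.17 and 6.58 in SafLD. At the limit itself, 10701358, 10700208 and 10701236 were just inside at 1.01, 1.02 and 1.02, and 10701273, 10903674 and 10700143 just outside at 0.9986, 0.9962 and 0.9845. A further 25 probe sets without a symbol had a difference of 1 or more but overlapping arrays, and 22 of them lay in the run.

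The rise of the run members was not the same in every array of a group. Their median level above the Control mean was 1.29, 1.27 and 1.26 in the 3 SafLD arrays, and −0.16, 0.28 and −0.14 in the Control arrays that chose them. It was 0.88, 0.38 and 0.30 in PBM, 0.06, 0.50 and 0.81 in Saffron, 0.55, 0.52 and 0.72 in LD and 1.11, 0.13 and 0.28 in PBMLD. One PBMLD array thus stood close to the SafLD arrays and the other two did not. The same array was the highest of its group for the members outside the run (1.06, 0.61 and 0.68 in PBMLD), but the lowest for the 130 probe sets with 1 symbol that met the same limits (0.61, 1.34 and 1.06). For members outside the run the medians were 0.78, 0.86 and 0.80 in LD, 0.42, 0.30 and 0.20 in PBM, 0.05, 0.33 and 0.47 in Saffron and 1.16, 1.24 and 1.38 in SafLD.

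**Figure D1:**
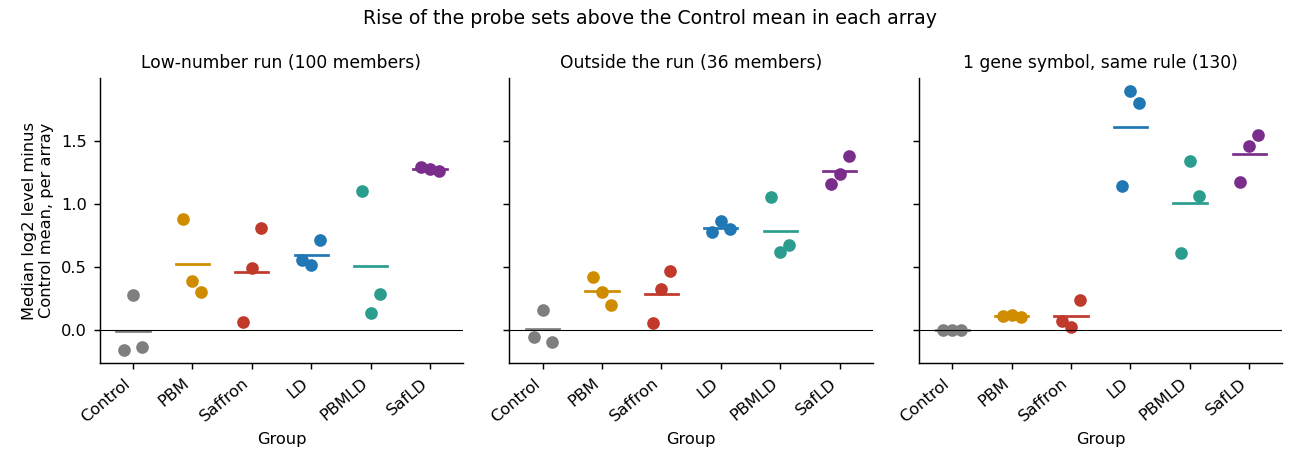
Median log2 level above the Control mean (vertical axis) in each of the 18 arrays, by group, for the 100 members in the low-number run, the 36 members outside it and the 130 probe sets with 1 gene symbol that met the same limits. Points are arrays and lines are group means. In the run, the arrays of the 4 groups in the middle spread from 0.06 to 1.11 and the SafLD arrays lie together at 1.26 to 1.29. In the right panel LD reaches 1.89, above SafLD.

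The run as a whole, with no choice by difference, moved between arrays of 1 group too. The median level of its 1285 probe sets with a mean below 8 was 4.80, 5.14 and 4.93 in Control, 5.24, 4.96 and 4.93 in PBM, 4.86, 5.18 and 5.39 in Saffron, 5.04, 5.03 and 5.03 in LD, 5.36, 4.82 and 4.85 in PBMLD and 5.30, 5.34 and 5.27 in SafLD. Outside the choice, the run was highest in PBM 1, Saffron 3 and PBMLD 1, and its members were highest in these arrays too. Below them the orders differed: Saffron 2 had a run level of 5.18 with members at 0.50, and LD 3 5.03 with members at 0.72. The members are part of the run, and the choice set their height in SafLD. In the run's level 1 Saffron and 1 PBMLD array exceeded every SafLD array. The median of all probe sets stayed between 6.12 and 6.19. By level, the unselected run was higher in SafLD than in Control by a median of 0.30 at levels from 3 to 4, 0.41 from 4 to 5, 0.31 from 5 to 6, 0.35 from 6 to 7 and 0.22 from 7 to 8, and by 0.01 from 8 to 9 and −0.04 above 9. At the same levels the unnamed probe sets outside the run and the named ones had medians from −0.08 to 0.06. The part of this shift of the run in the rise of its 100 members was not tested. The labels say that RNA was treated with DNase in some cases but not in which, so arrays with and without that step could not be compared for the run. For the run at those levels LD minus Control had medians from −0.04 to 0.10. From level 3 to 8, in the same steps, Saffron minus Control had medians of 0.11, 0.19, 0.15, 0.17 and 0.14. Those of PBM minus Control were 0.01, 0.08, 0.10, 0.13 and 0.06, and those of PBMLD minus Control 0.02, 0.05, 0.07, 0.16 and 0.08.

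**Figure D2:**
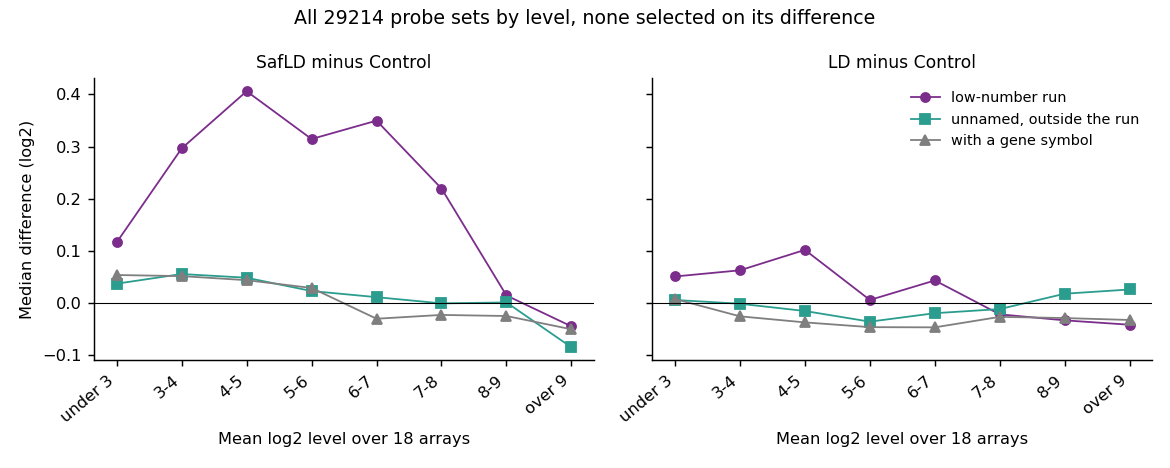
Median difference in log2 level (vertical axis) of SafLD minus Control, left, and LD minus Control, right, for all 29214 probe sets grouped by their mean level (horizontal axis) and by kind. No probe set was chosen by its difference. Saffron, PBM and PBMLD are not drawn. The low-number run stands at 0.30 to 0.41 for SafLD at levels from 3 to 7 and meets the other kinds above 8.

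The other groups were set against Control for the same members. These comparisons share the Control arrays of the choice, so they are values side by side and not tests. Among the 100 run members the median difference was 0.59 in LD, 0.44 in PBMLD, 0.60 in PBM and 0.42 in Saffron, so those without damaging light were about as high as those with it. Among the 36 outside it was 0.91 in LD, 0.64 in PBMLD, 0.21 in PBM and 0.24 in Saffron. The 130 probe sets with a symbol and the same limits had 1.64, 1.01, 0.09 and 0.10. All 3 LD arrays lay above all 3 Control arrays for 29 run members and 24 members outside the run, against 7.54% of all probe sets. The counts were 16 and 17 in PBMLD (9.07% of all), 21 and 13 in PBM (11.8%) and 16 and 4 in Saffron (5.19%).

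SafLD had the highest of the 6 group means in 89 of 100 run members and in 26 of 36 outside, where LD was highest in 9. In the named probe sets with the same limits LD was highest in 74 of 130 and SafLD in 54. SafLD arrays lay above all LD arrays for 43 run members and 17 outside, against 10.1% of all probe sets and 17.7% of the whole run. They lay above all Saffron arrays for 53 and 32 (10.7% of all), and above all PBMLD arrays for 35 and 17 (5.23% of all). The choice by SafLD values favours such an order, and these counts support nothing further.

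**Figure D3:**
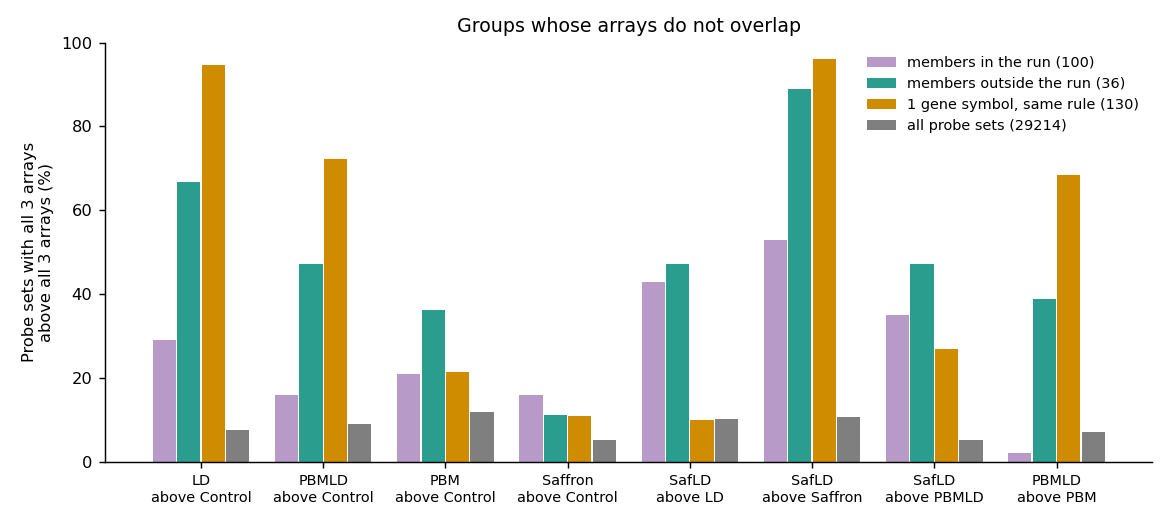
Percent of probe sets (vertical axis, from 0) in which all 3 arrays of the first group lay above all 3 of the second, for the 100 members in the run, the 36 outside it, the 130 with 1 symbol and the same limits and all 29214 probe sets. Only the last pair, PBMLD above PBM, uses no array of the choice. There the run members (2.0%) lie below all probe sets (7.17%) and below the whole run (5.38%, not drawn). The members outside the run (38.9%) lie above all probe sets.

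Against LD, the members differed widely. The largest SafLD minus LD differences were in 10700808, 10701578, 10700678 and 10700172 of the run (1.83, 1.78, 1.67 and 1.52) and in 10888777 (1.44), each with no overlap. In 10700808 the LD arrays read 2.99, 2.90 and 3.21, below the Control arrays at 3.53, 3.23 and 4.10, and the SafLD arrays 4.63, 5.64 and 4.32. Near the other end were 10819500, 10843907 and 10700730, which were lower in SafLD than in LD by 0.75, 0.26 and 0.25, all with overlapping arrays.

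The light was tested in the arrays outside the choice, as the mean of LD and PBMLD minus the mean of PBM and Saffron (6 arrays against 6). Saffron-fed retinas stood only on the side without light, and retinas without pretreatment only on the side with it. The difference therefore mixes the light with any effect of saffron. In limma, with an adjusted p below 0.05 over all probe sets and a fold above 2, 6 members rose and 0 fell, against 0.284% of all probe sets that rose and 0.0274% that fell. All 6 lay among the 36 members outside the run (16.7% of them). Of the 100 run members 0 passed, the lowest adjusted p being 0.117, and 4 had an unadjusted p below 0.05 and a higher value with light, 2 a lower one. Their median difference was 0.09, with 61 of 100 above 0, against 0.44 with 29 of 36 above 0 outside the run and −0.02 over all probe sets. Without PBMLD 1 the run members' median was −0.08, with 42 of 100 above 0, and that of the members outside was 0.32. Without PBM 1 the call was passed by 1 run member. Named probe sets with the same limits had a median of 1.20, and 69 of 130 passed.

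**Figure D4:**
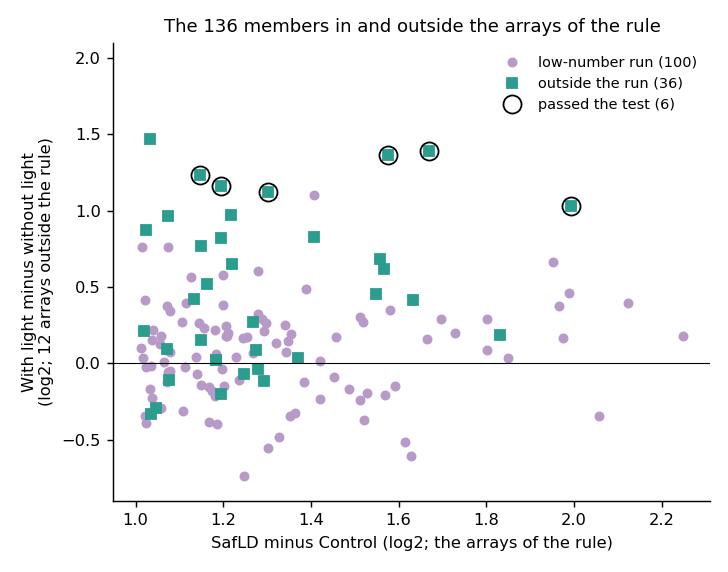
Each of the 136 members by its SafLD minus Control difference (horizontal axis, log2, the values that chose it) and its difference with light in the 12 arrays outside the choice (vertical axis, log2). The 6 ringed members passed the test. The run members scatter around 0, with a median of 0.09, and the members outside the run lie higher, with a median of 0.44.

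Of the 6, 4 are described here, and Fbxo27 (10705553) is the one with a symbol. It read 8.48, 9.33 and 8.93 in LD and 7.91, 8.63 and 8.60 in PBMLD, against 7.08, 7.53 and 7.50 in PBM and 7.14, 7.12 and 7.33 in Saffron. All 6 arrays with light lay above all 6 without it. The difference was 1.36 ± 0.16 (SE), 2.58-fold, with an adjusted p of 0.000973 in limma. The SafLD arrays (8.38, 8.95 and 9.33) were close to the LD arrays, the lowest just below them, and the Control arrays (7.38, 7.33 and 7.22) lay in the range of the other groups without light.

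The other 3 of these have no symbol. Probe set 10752799 read 6.70, 7.02 and 6.96 in LD and 6.48, 6.43 and 6.67 in PBMLD, against 5.66, 5.75 and 4.33 in PBM and 5.02, 5.01 and 6.14 in Saffron, a difference of 1.39 ± 0.25 with an adjusted p of 0.0156 in limma. Its arrays without light were spread widely, as were its Control arrays (5.01, 6.15 and 4.43). It did not pass by the methods' t-test after adjustment (adjusted p = 0.0798). With each array left out in turn it passed, with an adjusted p of up to 0.0484 in limma (without Saffron 2). Probe set 10768826 was less spread than 10752799. It read 10.23, 10.47 and 9.90 in LD and 9.94, 10.18 and 10.05 in PBMLD, against 9.11, 8.92 and 8.95 in PBM and 8.92, 8.64 and 9.23 in Saffron, a difference of 1.16 ± 0.12 with an adjusted p of 0.00041 in limma. Both it and Fbxo27 passed under all 24 alternatives, with differences from 1.09 to 1.24 and from 1.26 to 1.48.

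Probe set 10766724 was the member outside the run with the largest SafLD difference. It read 6.97, 6.71 and 7.24 in LD, 6.64, 6.31 and 6.50 in PBMLD and 7.21, 7.51 and 7.59 in SafLD, against 5.72, 5.80 and 5.40 in PBM, 5.54, 5.79 and 5.93 in Saffron and 5.40, 5.85 and 5.09 in Control. The groups formed a series in which SafLD was highest, but the highest LD array passed the lowest SafLD array. The difference with light was 1.03 ± 0.12, with an adjusted p of 0.000839 in limma, and it fell to between 0.96 and 0.99, below 2-fold, when PBM 3, Saffron 1, LD 3 or PBMLD 1 was left out.

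**Figure D5:**
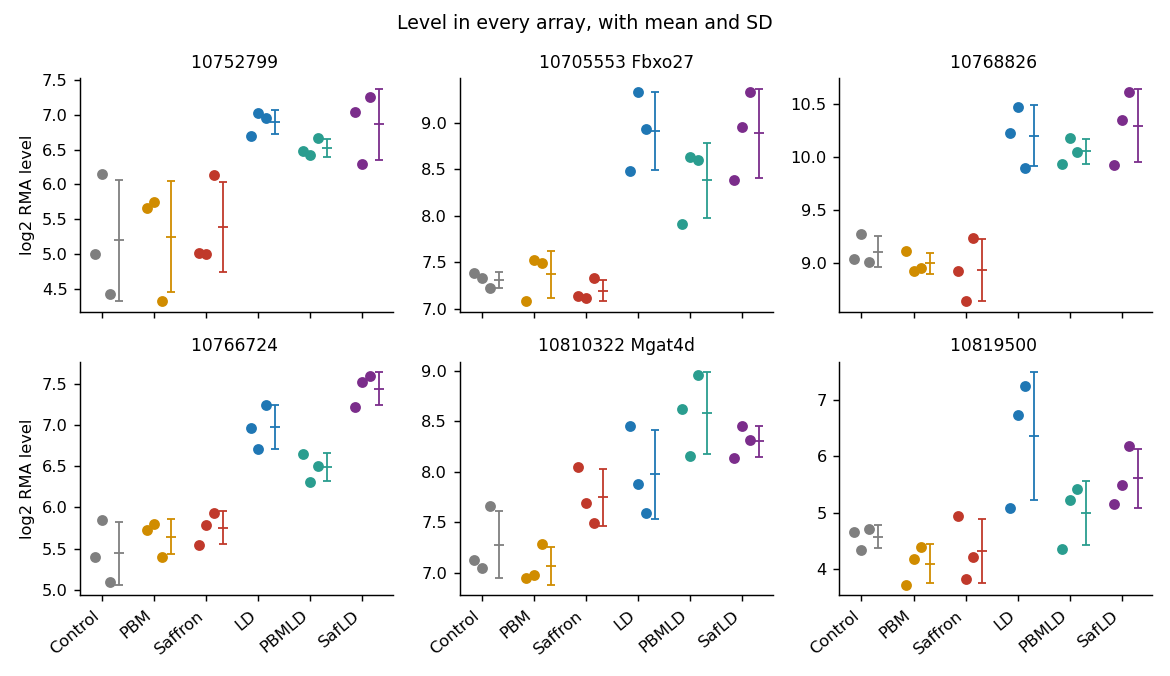
Log2 level (vertical axis, not from 0) in each array of the 6 groups for 4 of the 6 members that passed the light test, for Mgat4d, which passed within PBM, and for 10819500, which did not pass. Points are arrays, and the bar beside them gives the mean and SD. In the first 4 panels every LD and PBMLD array lies above every PBM and Saffron array.

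A further 6 members had an adjusted p below 0.05 but less than a 2-fold difference with light. These were LOC687745 (10832646) at 0.97 ± 0.15, Mgat4d (10810322) at 0.87 ± 0.17, Dennd4a (10910805) at 0.83 ± 0.12, 10935061 at 0.82 ± 0.16, 10815496 at 0.77 ± 0.15 and 10803001 at 0.65 ± 0.12, with adjusted p from 0.00291 to 0.0297 in limma. In PBMLD minus PBM, with PBM on both sides, the same 6 had 0.95, 1.51, 0.69, 0.64, 0.52 and 0.29 in that order. S1pr3 (10797566) at 0.52 ± 0.16 had an adjusted p of 0.197 in limma. All 8 members with symbols had an unadjusted p below 0.05 and a higher value with light, as had 10 of the other 28 members outside the run. The largest difference of all belonged to 10819500, at 1.47 ± 0.33, which did not pass (adjusted p = 0.0549 in limma). It read 5.09, 6.73 and 7.25 in LD but 4.36, 5.22 and 5.43 in PBMLD and 5.16, 5.49 and 6.18 in SafLD, so that 1 PBMLD array lay among those without light.

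With the pretreatment held the same, PBMLD was set against PBM (3 arrays against 3). Here 2 members rose and 0 fell, against 0.0685% of all probe sets that rose and 0.0274% that fell. Mgat4d (10810322), a gene of the N-acetylglucosaminyltransferase family, read 8.62, 8.15 and 8.96 in PBMLD and 6.94, 6.98 and 7.28 in PBM, a difference of 1.51 ± 0.24 with an adjusted p of 0.0326 in limma. Its Saffron arrays (8.05, 7.69 and 7.50) overlapped the LD arrays (8.46, 7.88 and 7.59). Probe set 10768826 rose by 1.06 ± 0.18, with an adjusted p of 0.0393. Neither passed when any 1 of the 3 PBM arrays was left out. Mgat4d also did not pass without PBMLD 1 or PBMLD 3 (adjusted p of 0.0592 and 0.153 in limma) or with the 2 groups alone (0.0858). Nor did 10768826 pass without PBMLD 2 or PBMLD 3 (adjusted p of 0.128 and 0.15 in limma). Run members had a median of −0.04, with 44 of 100 above 0, 0 calls and a lowest adjusted p of 0.517. Without PBMLD 1 the median was −0.34 with 32 of 100 above 0, and without PBM 1 it was 0.10 with 61 of 100 above 0, so its direction turned with 1 array. Members outside the run had a median of 0.34, with 27 of 36 above 0, and of 0.24 and 0.40 without those arrays. All PBMLD arrays lay above all PBM arrays for 2 run members and 14 outside, against 7.17% of all probe sets and 5.38% of the whole run.

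Neither of the other tests called a member. For PBMLD minus LD, which asks what PBM before the light changed, 0 of 136 passed in limma, against 0.00685% of all probe sets that rose and 0.161% that fell. Without adjustment 7 members had a p below 0.05 and a higher value and 13 a lower one, and the medians were −0.17 in the run and −0.14 outside it. The run's median turned with 1 array, to 0.12 with 60 of 100 above 0 without PBMLD 2, and was −0.01 without PBMLD 3 and −0.47 without PBMLD 1, while outside the run it stayed below 0, from −0.34 to −0.09, with each array left out in turn. By the methods' t-test without adjustment 1 member passed upward and 3 downward. Without LD 1, 3 members passed, 1 higher and 2 lower in PBMLD. For PBM minus Saffron, the pretreatments without damaging light, 0 of 136 passed, against 0% of all probe sets that rose and 0.274% that fell, with 8 higher and 5 lower at an unadjusted p below 0.05 and medians of 0.08 and 0.04 in and outside the run. Both medians turned with 1 array, to −0.15 and −0.07 without Saffron 1 and to −0.07 and −0.01 without PBM 1, and without Saffron 3 the call was passed by 1 run member. There the methods' t-test without adjustment passed 1 member in each direction.

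The numbers of the array gave most members outside the run a place among named genes. Of 15304 probe sets with a symbol and a RefSeq location, 91.8% of those next to each other in number lay on the same chromosome, and 96.0% of these were in the order of the GRCr8 map. All 7 members with a RefSeq symbol lay between their number neighbours on that map. For 10752799, 10930622, 10832646 and 10815943 the neighbours gave no interval on the map, and for 10766880 they enclosed 1362 genes. The members with identical values, 10803671 and 10923938, had different places, next to Gypc and to Creb1. A neighbour does not name a member. The members' neighbours hardly shared their rise, since of 68 nearest named probe sets 66 had SafLD minus Control differences from −0.45 to 0.68.

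The remaining 2 neighbours were Gbp5 and Gbp2, genes of guanylate-binding proteins that interferons induce. They flanked 10819500 and were 2.04 and 2.82 higher in SafLD, and 1.99 and 2.43 higher with light in the arrays outside the choice. RefSeq places Gbp7 and Gbp4 between them. Members 10766724 and 10766722, 2 numbers apart, lay between Batf3 and Pacc1, whose differences were 0.14 and −0.04. On the RefSeq map that interval holds 6 genes, among them Nenf and Atf3, and the probe set that carries the Atf3 symbol (10770710) lies elsewhere in the numbering and was 3.51 higher in SafLD and 3.29 higher with light. Member 10766722 read 7.88, 8.04 and 7.83 in SafLD and 6.33, 6.18 and 6.35 in Control, and its difference with light was 0.42, with an adjusted p of 0.303 in limma. Probe set 10768826 lay between Mr1 and Xpr1 (−0.33 and 0.05), where RefSeq lists Stx6 and Kiaa1614.

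The SafLD arrays of member 10935061 read 6.96, 6.97 and 7.03 and its Control arrays 5.79, 5.80 and 5.78, the smallest spreads of the members named here. In the run, where members made up 6.18% of the probe sets, 73 of 100 lay within 10 numbers of another member. The count to be met without any grouping was not computed, so this does not show that they group.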

How the data were processed

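Retinal RNA of 18 arrays in 6 groups of 3 was analysed. The authors deposited log2 levels, 1 per probe set and array, made with RMA, and the submitters' notes list the program Expression Console (Affymetrix, version 1.1.2800.19935). The genome build was not given in the sources used here. Values on the log2 scale (1.37 to 14.03, array medians 6.12 to 6.19) were used as deposited, and the earlier steps, from scanner images to summarised probes, were taken as given. Arrays have no read depth, and their number limits the precision. The labels do not tie an array to an animal. The study's methods describe each retina as from a different animal, so p-values measure the spread between such samples.

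Symbols came from the platform's gene table by probe set number (15310 with 1 symbol, 323 with several, 13581 not listed), and for 8 members from the study's annotation. The members and gene lists were chosen with earlier results of these data known. Tests used limma (version 3.58.1, R 4.3.3) on the 12 arrays that the choice of members did not use, as group means with 8 residual degrees of freedom and a prior of 4.92, two-sided, with Benjamini-Hochberg adjustment over all 29214 probe sets, and called below 0.05 and above 2-fold. The steps were tested on simulated data with planted changes. Members named in the text were the 15 with the largest SafLD minus Control difference, those called in a test, the 5 largest and 5 smallest SafLD minus LD differences, the 3 on each side of the limit, those named by the study, those outside the run within 10 numbers of another (in the run only counted), and a few more examples picked once their values were known, apart from 3 members that are not reported here singly, though they stay in the counts and medians. The gene lists were described and not tested. Gene order and promoters came from RefSeq (GRCr8), and no coordinates of the array's build were used.

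Alternatives were other limits of the choice, other scalings, the leaving out of dim probe sets (mean below 4.31) and of each array, all 18 arrays in 1 fit, the 2 groups alone, the methods' t-test, robust fitting with a variance trend, weighted arrays, calls without a fold limit, and the replicate number as a block. Leaving out the low-number run was added after seeing the data. Replicate numbers did not pair the arrays: over 18 pairs of same-numbered arrays of different groups, the correlation of deviations from the group means ran from −0.29 to 0.23, and the labels do not say that a number is shared. The interferon-type motif searched in promoters was shortened by its last letter after a first search had been seen, so its matches are a description only.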

Additional observations from a re-analysis of the deposited data

How the results depend on the processing

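The number of members was 136 and ran from 106 to 161 without the condition on overlap, under median centring, quantile normalization, cyclic loess, without dim probe sets and without those the study's tables name. It was 468 with a limit of 1.5-fold and 3 with a limit of 4-fold, from 121 to 230 with each Control or SafLD array left out in turn (230 without Control 2), and 36 without the low-number run, an alternative chosen after seeing the data. Leaving out probe sets that the platform's gene table does not list gave no value, because every member is such a probe set. Without dim probe sets, 71 members in the run and 35 outside it were left.

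For the light in arrays outside the choice, 6 members passed, 3 by the methods' t-test after adjustment, 12 with no fold limit, and from 4 to 8 with each array left out in turn. Counts over all probe sets were 91, 44, 335 and from 74 to 139 in the same order. For PBMLD against PBM, 2 members passed, 1 with the 2 groups alone, 4 by the methods' t-test without adjustment and 0 after it, 4 with array weights, and from 0 to 3 with each array left out in turn. With the replicate block 1 passed there, Mgat4d, while 10768826 had an adjusted p of 0.0993 in limma, and the paired numbers changed no other test's count of members by more than 1.5 times (7 against 6 for the light, 0 and 0 for the rest). For PBMLD against LD, 0 members passed, 4 by the methods' t-test without adjustment, 1 with array weights and from 0 to 3 with each array left out in turn. For PBM against Saffron, 0 passed, 2 by the methods' t-test without adjustment, 1 with array weights and from 0 to 1 with each array left out in turn. The causes of these changes were not tested, beyond the looser limits and fewer arrays that the settings bring. No direction of a called member reversed under any setting run. Over all probe sets, counts outside 1.5 times of the main one ran from 8 to 67 for PBMLD against PBM (main 28, 0 by the adjusted t-test), from 80 to 124 for PBMLD against LD (main 49, 0) and from 33 to 184 for PBM against Saffron (main 80, 0).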
